A study of Mus musculus with 6 samples.

Results

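The satellite RNA of mouse embryonic fibroblasts was measured in 7 repeat rows, all the rows that the deposited repeat annotation places in the class Satellite, out of 1336 rows in each library. Of these, 6 belong to the family Satellite (GSAT_MM, SYNREP_MM, MMSAT4, ZP3AR, IMPB_01 and MurSAT1) and 1, CENSAT_MC, to the family centr. All 7 had enough counts to be tested, as did 1193 of the 1336 rows.

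Fibroblasts of 2 genotypes were compared. Wild-type (WT) cells carry intact Actb, and knockout (KO) cells, labelled Actb-/-, lack the gene of β-actin, which forms cytoplasmic filaments and is also a nuclear protein and a subunit of BAF-type chromatin remodelling complexes. All cells were BALB/c fibroblasts from embryos of 10.5 days, untreated as far as the labels say, with 3 libraries per genotype that the series calls biological replicates. The labels do not say whether the KO cells are 1 clone or several, nor which cultures or embryos the libraries came from, so p-values measure the spread between these libraries, which may be technical. No row is a protein-coding gene, so neither the loss of Actb RNA nor the fibroblast identity was checked here.

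Satellites are short DNA units repeated head to tail in long arrays. In the mouse the major satellite, also called gamma satellite (GSAT_MM), fills the pericentromeric heterochromatin next to the centromeres, which clusters into the chromocentres of the nucleus and is packed by repressive histone methylation and HP1 proteins. Minor satellite lies at the centromere proper and binds the centromere protein CENP-B. RNA of these arrays is low in most differentiated cells and is known to change in development, cell division and stress. The arrays are largely missing from the assembled mouse chromosomes, and each row sums all annotated copies without positions. A row therefore does not show whether its reads came from the arrays or from copies elsewhere.

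Libraries held 7708630 to 19288620 counts, and ribosomal RNA (rRNA) took 32.4% to 84.8% of them. The rRNA share was lowest in WT replicate 1 and KO replicate 2 and highest in WT replicate 2 and KO replicate 1. Levels are therefore given as normalized CPM, counts per 1e6 of a library size rescaled with TMM (a trimmed mean of log ratios), which follows the bulk of repeat rows and not the rRNA. They are relative to that bulk, and in bulk RNA fewer cells of a type and less RNA per cell cannot be told apart.

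In KO cells the major satellite row stood at 1.39 times its WT level on average, but this difference did not pass the test over all rows, and neither did that of any other satellite row. By edgeR's quasi-likelihood test with Benjamini-Hochberg adjustment, 0 of 7 satellite rows were called at an adjusted p under 0.05, where 5.78% of all 1193 tested rows were called. DESeq2 and limma-voom also called 0 of the 7, beside 6.59% and 5.28% of all rows with an adjusted p. At an unadjusted p under 0.05 edgeR had 2 satellite rows, GSAT_MM and SYNREP_MM, beside 20.9% of all tested rows, while DESeq2 had 0 beside 17.4% of all rows and limma-voom 3 beside 21.9%. The directions were mixed: 4 satellite rows had a log2 fold change above 0 and 3 below, with a median of 0.03, against 0.01 over all tested rows. The median size of the change regardless of sign was 0.15 in the satellite rows and 0.15 over all tested rows.

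**Figure D1:**
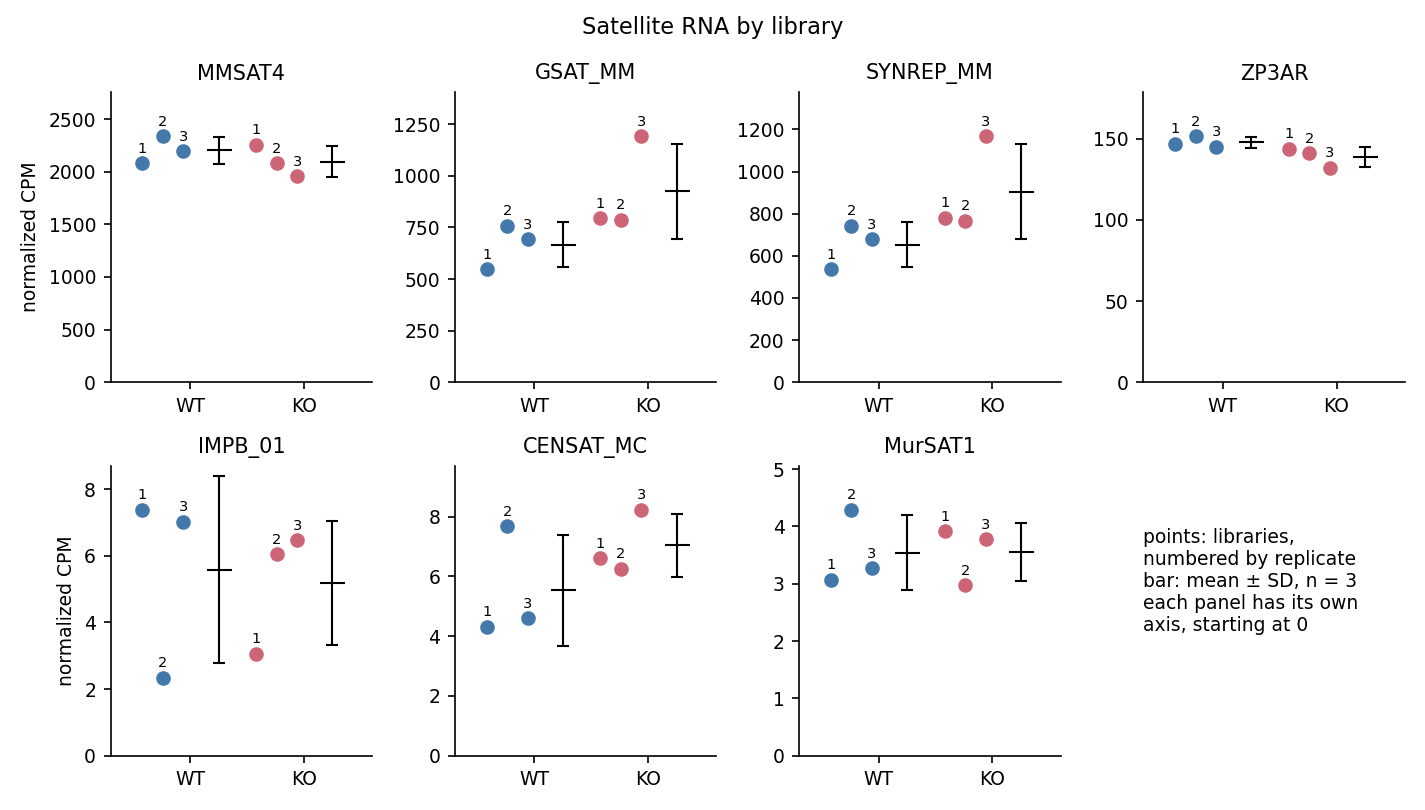
Normalized CPM (y axis, from 0, its own scale in each panel) of the 7 satellite rows in WT and KO libraries. Points are libraries numbered by replicate and bars are mean ± SD (n = 3). GSAT_MM and SYNREP_MM show the same pattern, with KO replicate 3 highest at 1192 and 1167, while MMSAT4 and ZP3AR vary little.

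GSAT_MM, the major satellite, was at 548, 758 and 694 normalized CPM in the WT libraries, numbered 1 to 3, and at 795, 787 and 1192 in the KO libraries. In normalized CPM every KO library lay above every WT library. KO replicates 1 and 2 were only slightly above WT replicate 2, and KO replicate 3 was far above all others. The means were 667 ± 108 in WT and 925 ± 232 in KO (SD, n = 3). The log2 fold change was 0.47 with a standard error of 0.18 and a 95% interval of 0.05 to 0.89, not adjusted for the number of rows (edgeR adjusted p = 0.188). It ranked 203rd by p-value among the 1193 rows. Scaled by total counts, rRNA included, it was 0.20, where the median of all tested rows was -0.36. Without KO replicate 3 the log2 fold change was 0.24, and the unadjusted p rose from 0.0321 to 0.123. The edgeR unadjusted p was also above 0.05 without WT replicate 1 (0.0996) or WT replicate 3 (0.0531). With total counts it was 0.851, and DESeq2 gave 0.0544. Scaled by counts outside structural RNA (rRNA, tRNA and related classes), the log2 fold change was 0.51 with a standard error of 0.42 (edgeR unadjusted p = 0.227). GSAT_MM and SYNREP_MM together took 0.639%, 0.468% and 0.603% of those counts in WT and 0.498%, 0.882% and 1.06% in KO. The genotypes overlapped on that scale.

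SYNREP_MM moved with GSAT_MM in every library. It was at 535, 743 and 679 normalized CPM in the WT libraries and at 781, 766 and 1167 in the KO libraries, again without overlap. Its log2 fold change was 0.47 ± 0.18 (standard error; edgeR adjusted p = 0.188), equal to that of GSAT_MM to 2 decimals. The count of SYNREP_MM divided by that of GSAT_MM was 0.977, 0.979 and 0.979 in the WT libraries and 0.983, 0.973 and 0.979 in the KO libraries. The counts themselves ran from 5710 to 17307 for SYNREP_MM and from 5832 to 17675 for GSAT_MM, a range of 3.03-fold in each, while their ratio varied by 1.01-fold. The sources used here do not say how a read that matches both rows was divided. The pair cannot be read as independent measurements, and the SYNREP_MM values add no replication to those of GSAT_MM.

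CENSAT_MC, the only row of the centr (centromeric) family, was low. Its counts were 104, 59 and 66 in the WT libraries and 54, 126 and 122 in the KO libraries. As normalized CPM these were 4.32, 7.67 and 4.59 in WT and 6.62, 6.26 and 8.23 in KO. WT replicate 2 lay within the KO range, so the genotypes overlapped. The log2 fold change was 0.44 with a standard error of 0.23 and a 95% interval of -0.09 to 0.98 (edgeR adjusted p = 0.337). Its point value is near that of the major satellite, but the interval runs from 0.937 to 1.97 times the WT level. Without WT replicate 2 the log2 fold change was 0.66 and the adjusted p 0.102 by edgeR, and without WT replicate 1 the log2 fold change was 0.26.

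MMSAT4 had the most counts of the 7 rows, between 17971 and 50188 per library. It was at 2082, 2337 and 2197 normalized CPM in the WT libraries and 2256, 2080 and 1956 in the KO libraries. In normalized CPM the genotypes overlapped, and the highest library was only 1.19 times the lowest. As a share of counts outside structural RNA, the satellite rows other than GSAT_MM and SYNREP_MM together varied by 1.73-fold. Most of their counts were those of MMSAT4. The log2 fold change of MMSAT4 was -0.07 (standard error 0.10), and the 95% interval of -0.30 to 0.16 spans 0.812 to 1.11 times the WT level (edgeR adjusted p = 0.731).

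ZP3AR varied least. It was at 147, 152 and 145 normalized CPM in the WT libraries and 144, 141 and 132 in the KO libraries. On this scale all KO libraries lay below all WT libraries by a narrow margin, 144 against 145 at the nearest. The means were 148 ± 3.33 in WT and 139 ± 6.18 in KO, and the log2 fold change was -0.09 (standard error 0.05; edgeR adjusted p = 0.398). Its 95% interval of -0.21 to 0.03 spans 0.865 to 1.02 times the WT level. Counting error alone was 1.68% to 2.93% of a library's value at the 1165 to 3540 counts of this row.

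The other rows had few counts. MurSAT1, with 32 to 74 counts per library, was at 3.07, 4.29 and 3.27 normalized CPM in WT and 3.92, 2.98 and 3.78 in KO. The genotypes overlapped fully, and the log2 fold change was 0.03 with a 95% interval of -0.47 to 0.52 (edgeR adjusted p = 0.955). For MurSAT1 this interval spans 0.724 to 1.44 times the WT level, so changes of that size are compatible with these libraries. IMPB_01 was at 7.39, 2.34 and 7.03 in WT and 3.06, 6.06 and 6.48 in KO. WT replicate 2 and KO replicate 1 were low and the other libraries were close to each other. The low values rest on 18 and 25 counts, with exact Poisson 95% intervals of 10.7 to 28.4 and 16.2 to 36.9 that cover counting error only. The log2 fold change of IMPB_01 was -0.15 with a 95% interval of -0.98 to 0.68 (edgeR adjusted p = 0.869).

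Over the class, 3 of 7 rows had normalized CPM values that did not overlap between the genotypes: GSAT_MM and SYNREP_MM above and ZP3AR below WT. Among all 1193 tested rows, 25.8% had no overlap, 12.4% with every KO library above and 13.4% with every KO library below WT. Since GSAT_MM and SYNREP_MM gave nearly the same counts, the 3 rows amount to a pair of patterns at most.

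The spread between replicates differed widely among the satellite rows. The standard deviation within genotypes, on the log2 scale of normalized CPM, was 0.30 for GSAT_MM and 0.30 for SYNREP_MM. Among the 279 tested rows that averaged 1000 counts or more the median was 0.07, and 92.5% had a smaller value than GSAT_MM. MMSAT4 had 0.09 and ZP3AR 0.05, with 67.4% and 24.7% of those abundant rows below them. Satellite rows with fewer counts are set against all 1193 tested rows instead, so their percentages are not comparable with those above. The within-genotype SD on the log2 scale was 0.76 for IMPB_01, 0.35 for CENSAT_MC and 0.23 for MurSAT1. Of all tested rows, 97.2%, 83.4% and 69.0% had a smaller one, in the same order.

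**Figure D2:**
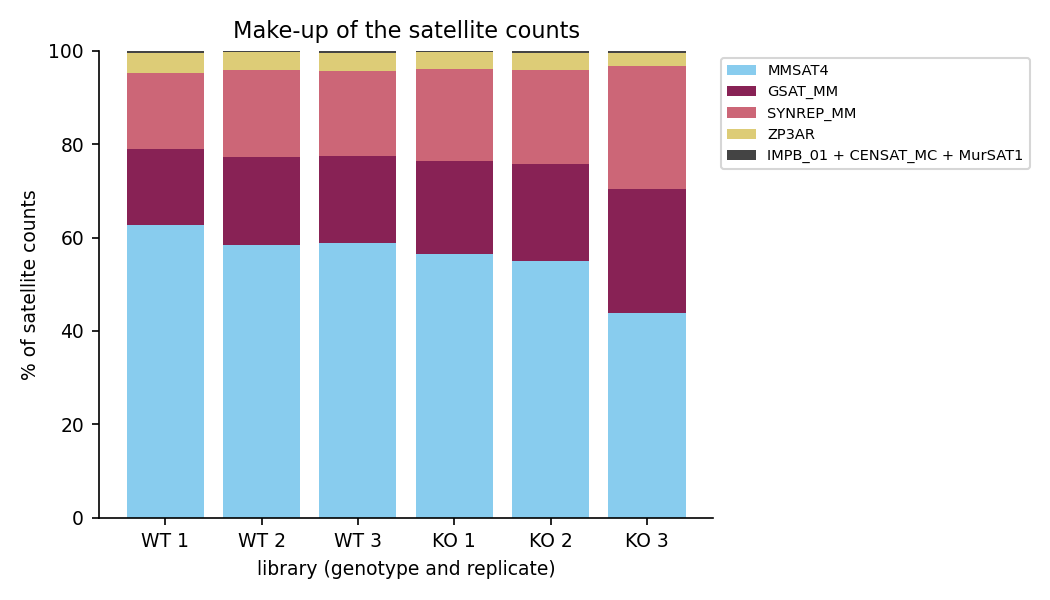
Each bar is a library and its segments are the share of the satellite counts (y axis, %) taken by each row. MMSAT4 takes 62.6% in WT replicate 1 and 43.8% in KO replicate 3, and GSAT_MM and SYNREP_MM each take more of KO replicate 3 than of any other library.

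The make-up of the satellite counts does not depend on how libraries are scaled. Counts are not corrected for length or copy number, which the files do not give, so the shares describe reads and do not rank the rows by transcription per copy. GSAT_MM and SYNREP_MM both enter the total in full, so any read counted in both rows enlarges it and shifts every share. MMSAT4 took 60.0% ± 2.30 of the satellite counts in WT and 51.7% ± 6.93 in KO (SD, n = 3). GSAT_MM took 16.5%, 18.9% and 18.6% in the WT libraries and 19.9%, 20.8% and 26.7% in the KO libraries. ZP3AR took 4.03% ± 0.338 in WT and 3.43% ± 0.412 in KO. The 3 rare rows IMPB_01, CENSAT_MC and MurSAT1 each took under 0.3% of the satellite counts in every library.

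Ratios within a library give the same picture. The count of MMSAT4 divided by that of GSAT_MM was 3.80, 3.08 and 3.16 in the WT libraries and 2.84, 2.64 and 1.64 in the KO libraries. All KO values were lower than all WT values, and KO replicate 3 was the lowest. By contrast MMSAT4 divided by ZP3AR stayed between 14.2 and 15.7 in all 6 libraries, at 14.9 ± 0.655 in WT and 15.1 ± 0.514 in KO. Of the 21 ratios between the 7 rows, 4 did not overlap between the genotypes, and all 4 set GSAT_MM or SYNREP_MM against MMSAT4 or ZP3AR. SYNREP_MM repeats the GSAT_MM pattern, and MMSAT4 and ZP3AR kept a nearly constant ratio to each other. The 4 ratios therefore largely restate the GSAT_MM pattern and are not independent of each other. Among all 702705 pairs of the 1186 tested rows with no count of 0, 26.3% of ratios did not overlap, so the count for the satellite rows is not above the background. No p-value is given for these ratios, since their rows were not chosen independently of earlier results.

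**Figure D3:**
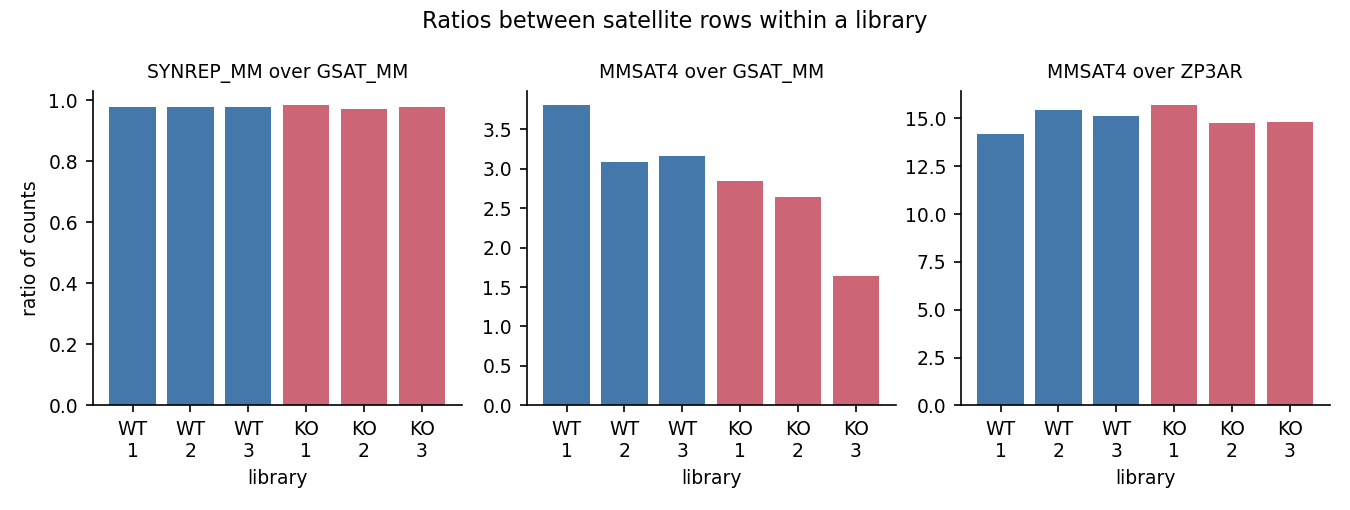
Ratios of counts (y axis, from 0) between satellite rows in each WT (blue) and KO (red) library. SYNREP_MM over GSAT_MM is nearly constant at 0.973 to 0.983, MMSAT4 over GSAT_MM is lower in the KO libraries, and MMSAT4 over ZP3AR varies between 14.2 and 15.7 in both genotypes.

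As a share of all counts outside structural RNA, satellites took 1.96%, 1.25% and 1.64% in the WT libraries and 1.26%, 2.15% and 2.001% in the KO libraries. The exact (Clopper-Pearson) 95% binomial interval in WT replicate 2, the library with the fewest such counts, was 1.23% to 1.26% and covers counting error only. The mean was 1.62% ± 0.358 in WT and 1.80% ± 0.477 in KO, a difference of 0.189 percentage points that is smaller than the SD of either genotype. The libraries lowest in this share, WT replicate 2 and KO replicate 1, were those with the most rRNA, 84.1% and 84.8%. Any read counted in both GSAT_MM and SYNREP_MM enters this share through each row. Without GSAT_MM and SYNREP_MM the share was 1.05% ± 0.272 in WT and 0.992% ± 0.257 in KO, so the sign of the difference between the genotypes rested on that pair of rows.

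**Figure D4:**
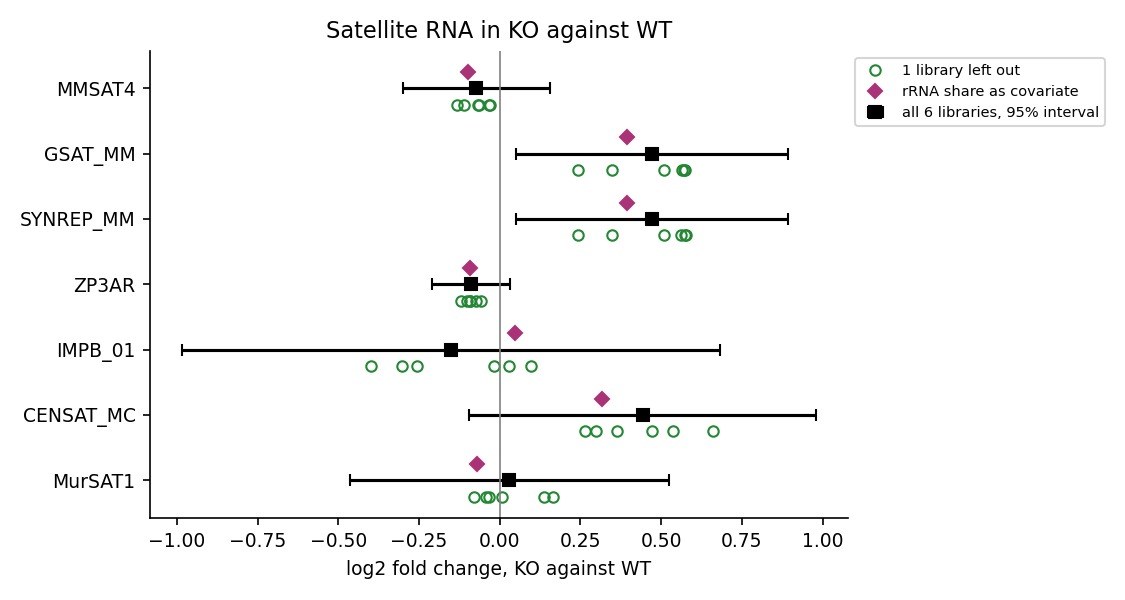
Log2 fold change of KO against WT (x axis) for the 7 satellite rows with all 6 libraries (squares, 95% interval), with 1 library left out (circles) and with the rRNA share as a covariate (diamonds). The GSAT_MM and SYNREP_MM values stay above 0 and drop to 0.24 without KO replicate 3, while those of IMPB_01 and MurSAT1 lie on both sides of 0.

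Since the rRNA share differed so much between libraries, satellite levels are also given with the libraries of each genotype in the order of that share. In the libraries of each genotype with the least rRNA (WT replicate 1 at 32.4% and KO replicate 2 at 52.9%), GSAT_MM in KO was 1.44 times its WT level. In those with the middle share (WT replicate 3 at 73.7% and KO replicate 3 at 77.0%), it was 1.72 times the WT level. In those with the most rRNA (WT replicate 2 and KO replicate 1) it was 1.05 times the WT level. In normalized CPM, the scale of these ratios, every KO library lay above every WT library. On that scale any matching of the libraries would put KO higher in all 3 comparisons. These ratios therefore add no evidence of a difference, and each sets a single library against another. With the log2 rRNA share as a covariate the GSAT_MM log2 fold change was 0.39 (edgeR adjusted p = 0.138). CENSAT_MC had ratios of 1.45, 1.79 and 0.862 in the same order, and MMSAT4 0.999, 0.890 and 0.965.

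For IMPB_01 the low libraries were those with the most rRNA in each genotype: its lowest values, 2.34 and 3.06 normalized CPM, were in the libraries at 84.1% and 84.8% rRNA, and the other libraries, at 32.4% to 77.0% rRNA, had 6.06 to 7.39. With the rRNA covariate its log2 fold change turned from -0.15 to 0.05. What part the rRNA share has in these values was not tested beyond that covariate.

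**Figure D5:**
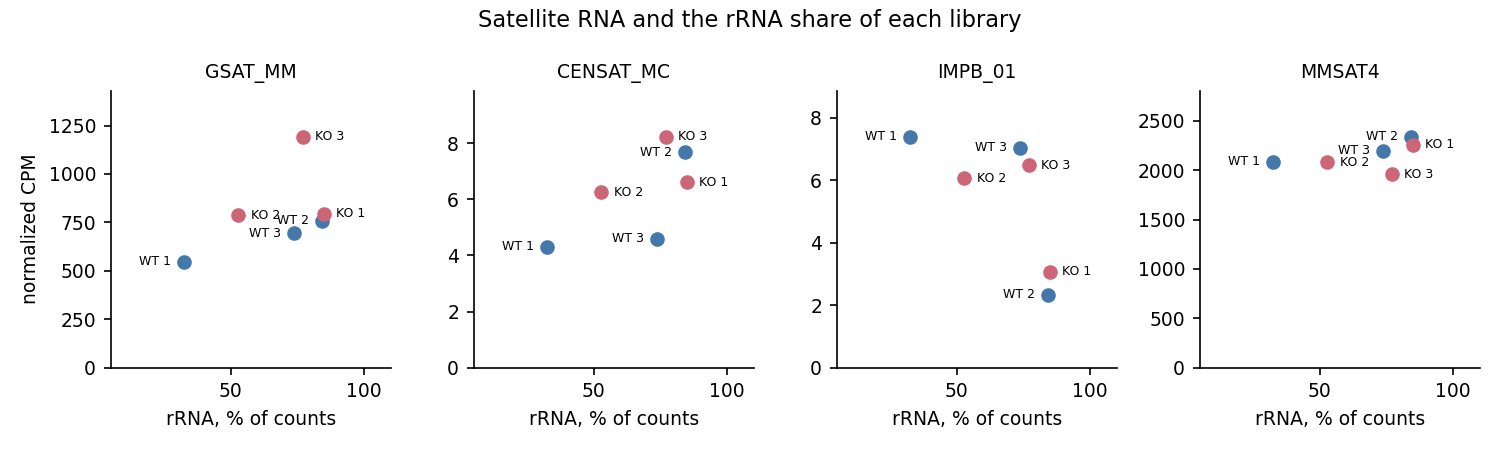
Normalized CPM (y axis, from 0, its own scale in each panel) of GSAT_MM, CENSAT_MC, IMPB_01 and MMSAT4 against the rRNA share of the library (x axis, % of counts), WT in blue and KO in red. IMPB_01 is low in the libraries at 84.1% and 84.8% rRNA, GSAT_MM is highest in KO replicate 3 at 77.0% rRNA, and MMSAT4 is nearly level.

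Rows outside the class with a profile close to that of GSAT_MM over the 6 libraries were looked for by the mean absolute difference of log2 levels, each row centred on its own mean. The closest of 1186 rows were Tigger8, a DNA transposon (difference 0.09), MER110, an ERV1 element (0.12), LTR82B, an ERVL element (0.15), RLTR50A, an ERVK element (0.15), and L1PB4, a LINE-1 element (0.15). The median difference over the 1186 rows was 0.28, and a row without any variation would differ from GSAT_MM by 0.228. SYNREP_MM differed from GSAT_MM by 0.003 on this measure and CENSAT_MC by 0.15, and only Tigger8 and MER110 of the outside rows were closer than CENSAT_MC. These 5 outside rows have means of 18 to 96.7 counts per library against 11503 for GSAT_MM, and none of them passed the test (edgeR adjusted p of 0.158 to 0.576).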

How the data were processed

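The authors deposited, for each of 6 libraries of mouse embryonic fibroblasts (3 WT, 3 KO), estimated counts per repeat row (fraction counts, per the file names), without normalization; all values were whole numbers. The submitters' processing notes list the tools Bowtie2, Trimmomatic and FastQC 0.11.5 and the builds mm10 and GRCm38, and per the labels' protocols the libraries were made with TruSeq Ribo-Zero from total RNA. For the repeat counter, its annotation, the use of strand and the division of shared reads, the sources used here give nothing.

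Members are all rows of class Satellite. They and the lists were chosen with earlier results of these data known. Groups and replicate numbers come from the sample titles. All rows were fitted together in R 4.3.3 with edgeR 4.0.16 (filterByExpr, which removed 143 rows, TMM, quasi-likelihood test, Benjamini-Hochberg at 0.05). Standard errors came from the F statistic. Profiles used log2 CPM with a prior count of 2. Rows were named by rule: every satellite row, and the 5 outside rows closest to GSAT_MM. MurSatRep1 was added after its values were seen, and so were the ratios between rows, the abundance limit of 1000 counts and the ordering by rRNA. Structural RNA means the 67 rows of the classes rRNA, tRNA, snRNA, scRNA, srpRNA and RNA. Alternatives were other scalings, filters and tests (DESeq2 1.42.0, limma-voom in limma 3.58.1), a replicate block, the log2 rRNA share as covariate, and leaving out libraries. The procedure was tested on simulated data. Over all rows together, rRNA included, replicates of a genotype differed far beyond sampling noise (chi-square at least 477 times its degrees of freedom). That statistic does not describe single rows. Repeat sequences were not used here.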

Additional observations from a re-analysis of the deposited data

How the results depend on the processing

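Under 17 alternatives no satellite row was called, and GSAT_MM, SYNREP_MM, CENSAT_MC, MMSAT4 and ZP3AR kept their direction in each of them. For GSAT_MM, SYNREP_MM and ZP3AR, whose normalized CPM values did not overlap between the genotypes, leaving out libraries could hardly reverse the direction. GSAT_MM ran from 0.20 with total counts, rRNA included, to 0.57 without KO replicate 2, with adjusted p-values of 0.138 to 0.999, and CENSAT_MC from 0.17 with total counts to 0.66 without WT replicate 2. With total counts MMSAT4 was at -0.41, ZP3AR at -0.45 and IMPB_01 at -0.60. With single libraries left out MMSAT4 ran from -0.13 to -0.03 and ZP3AR from -0.12 to -0.06. On the total-count scale the median of all rows lay at -0.36, so values there are relative to that shift. IMPB_01 turned to 0.046 with the rRNA covariate and ran from -0.40 to 0.10 when single libraries were left out. MurSAT1 turned to -0.34 with total counts and -0.071 with the rRNA covariate, and ran from -0.080 to 0.17 when single libraries were left out. The satellite share of counts outside structural RNA differed by 0.189 percentage points, by -0.06 as a share of all counts, by -0.05 without GSAT_MM and SYNREP_MM, and by 0.005 to 0.461 when single libraries were left out.

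The count of all rows called, 69 (26 higher, 43 lower), was 0 with total counts (3 at an unadjusted p under 0.05), 6 with total counts outside structural RNA (0 higher, 6 lower), 41 without structural RNA rows (20 higher, 21 lower), 9 without the 2 libraries lowest in rRNA, and 22 to 69 when single libraries were left out. With the replicate number as a block it was 24, and GSAT_MM was at 0.46. Deviations of libraries with the same number had correlations of -0.44, -0.39 and 0.02, not every library went best with its own number (the highest value, 0.51, was that of WT replicate 1 with KO replicate 2), and the labels tie no litter or batch to the numbers, so the block was not used. The cause of these changes was not tested. CENSAT_MC, IMPB_01 and MurSAT1 had 18 to 178 counts per library, where counting error alone was 7.5% to 23.6% of a value, against an SD of 50.4% of the mean in WT and 35.8% in KO for IMPB_01.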

Other observations

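MurSatRep1, whose name marks it as a murine satellite repeat, is listed in the class Unknown and so lies outside the satellite rows above. It had 33103 to 94362 counts per library, more than any row of the class in these libraries. It was at 3915, 4305 and 4051 normalized CPM in the WT libraries and at 4266, 3972 and 3800 in the KO libraries, so the genotypes overlapped. Its log2 fold change was -0.03 with a standard error of 0.11 and a 95% interval of -0.27 to 0.22 (edgeR adjusted p = 0.922). As in MMSAT4, WT replicate 2 was highest and KO replicate 3 lowest. The count of MMSAT4 divided by that of MurSatRep1 was 0.532, 0.543 and 0.542 in the WT libraries and 0.529, 0.524 and 0.515 in the KO libraries, a total range of 1.05-fold. All KO values of this ratio were lower than all WT values. Among all pairs of tested rows with no count of 0, 26.3% of ratios did not overlap between the genotypes. As for GSAT_MM and SYNREP_MM, the sources used here do not say how reads that match both MMSAT4 and MurSatRep1 were divided.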
